A study of Mus musculus with 8 samples.

Results

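The cadherin and protocadherin genes described here are the protein-coding autosomal genes whose symbol begins with Cdh and a digit, or with Pcdh and a digit or with Pcdh, a, b or g and a further digit or letter. The rule found 90 genes among the 20665 autosomal protein-coding genes of the RefSeq table for GRCm38.p6, whose coordinates are those of mm10. Of these, 33 stand alone (23 Cdh and 10 Pcdh genes), and 57 belong to the protocadherin clusters of chromosome 18, with 14 genes in the alpha, 22 in the beta and 21 in the gamma cluster. Chromatin immunoprecipitation sequencing was done on mesenchymal stem and progenitor cells cultured from C57BL/6 mouse bone marrow and used at passages 5 to 10. Asxl1-/- cells gave 1 library each for the histone marks H3K4me2, H3K4me3 and H3K27me3. Wild-type cells gave 1 library for each of the same marks and 1 for the ASXL1 protein. An input sample completes the 8 samples and was not analysed here. How the Asxl1 allele was made, and how many animals or cultures lie behind a library, is not given in the sources used here. With 1 library per group, no difference has a replicate check and none was tested.

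Cadherins are calcium-dependent adhesion proteins whose extracellular repeats bind the same or a related cadherin on the next cell. The tails of classical cadherins bind catenins, which link the junction to actin. Protocadherins lack the classical tail, and those of the delta class act in cell sorting and neural wiring. The alpha, beta and gamma clusters each hold a row of variable exons, most with a promoter of their own, and in neurons each cell is known to use its own combination of them. In the alpha and gamma clusters the variable exons are spliced to shared constant exons. Mesenchymal cells are known for Cdh2 and Cdh11, while Cdh1 and Cdh3 belong to epithelia and Cdh5 to endothelium. H3K4me3 is found at promoters in use or poised for use and H3K4me2 at these and at enhancers. H3K27me3 is deposited by a Polycomb complex over repressed genes. ASXL1 is a chromatin regulator that works with the deubiquitinase BAP1.

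RefSeq start sequences on GRCm38.p6 were matched for 21 of the 33 single genes. Each runs 5′ to 3′ from 250 bases before to 50 bases after the start, with every CG dinucleotide in capitals. Pcdh7 (chr5:57717831-57718130, plus strand) and Pcdh18 (chr3:49757267-49757566, minus strand) are shown because ASXL1 lay over both starts. Pcdh10 (chr3:45378148-45378447, plus strand) is the start with H3K4me3 in Asxl1-/- alone, and Pcdh17 (chr14:84443313-84443612, plus strand) had H3K4me3 and H3K27me3 in both genotypes. Cdh20 (chr1:104768270-104768569, plus strand) had islands in Asxl1-/- alone, and Cdh9 (chr15:16728665-16728964, plus strand) had none in any library.
Pcdh7: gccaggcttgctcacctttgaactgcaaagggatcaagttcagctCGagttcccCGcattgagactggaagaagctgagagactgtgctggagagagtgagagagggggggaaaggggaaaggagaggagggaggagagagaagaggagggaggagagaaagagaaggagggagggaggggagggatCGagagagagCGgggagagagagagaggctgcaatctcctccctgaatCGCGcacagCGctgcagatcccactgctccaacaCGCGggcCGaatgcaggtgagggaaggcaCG
Pcdh18: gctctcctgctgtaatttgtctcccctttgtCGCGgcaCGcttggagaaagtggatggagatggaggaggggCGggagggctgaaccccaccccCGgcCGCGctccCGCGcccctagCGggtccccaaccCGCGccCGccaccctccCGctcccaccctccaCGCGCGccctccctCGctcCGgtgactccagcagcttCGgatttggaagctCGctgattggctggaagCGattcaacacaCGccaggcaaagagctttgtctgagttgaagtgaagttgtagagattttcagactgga
Pcdh10: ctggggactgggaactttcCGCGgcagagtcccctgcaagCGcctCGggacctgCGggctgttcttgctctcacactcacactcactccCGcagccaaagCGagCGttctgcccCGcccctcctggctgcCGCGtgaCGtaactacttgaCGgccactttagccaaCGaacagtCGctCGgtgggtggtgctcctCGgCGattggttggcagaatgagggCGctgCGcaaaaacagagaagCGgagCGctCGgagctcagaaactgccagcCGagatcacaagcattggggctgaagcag
Pcdh17: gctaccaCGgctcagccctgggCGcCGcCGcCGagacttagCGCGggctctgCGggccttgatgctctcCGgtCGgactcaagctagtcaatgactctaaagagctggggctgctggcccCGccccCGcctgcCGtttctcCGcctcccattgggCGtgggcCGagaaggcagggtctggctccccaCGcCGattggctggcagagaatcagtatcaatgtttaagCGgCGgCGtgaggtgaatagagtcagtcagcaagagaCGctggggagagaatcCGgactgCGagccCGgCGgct
Cdh20: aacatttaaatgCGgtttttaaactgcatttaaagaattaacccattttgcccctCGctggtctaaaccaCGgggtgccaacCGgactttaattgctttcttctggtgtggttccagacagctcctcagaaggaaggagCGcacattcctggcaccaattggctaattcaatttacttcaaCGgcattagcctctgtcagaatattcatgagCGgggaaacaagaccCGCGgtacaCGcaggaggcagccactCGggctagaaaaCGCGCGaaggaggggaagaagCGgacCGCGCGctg
Cdh9: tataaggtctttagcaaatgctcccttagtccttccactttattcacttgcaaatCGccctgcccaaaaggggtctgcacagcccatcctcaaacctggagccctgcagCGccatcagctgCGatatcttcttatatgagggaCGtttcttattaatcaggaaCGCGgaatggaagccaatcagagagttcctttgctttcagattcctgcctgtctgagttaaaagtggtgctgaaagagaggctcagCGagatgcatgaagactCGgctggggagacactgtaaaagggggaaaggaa

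These starts differ in how many CG dinucleotides they hold. Pcdh17 has 26, Pcdh10 24, Pcdh18 23, Cdh20 18, Pcdh7 11 and Cdh9 8. Over the 21 matched genes the median was 12, against 14 over the 16457 genes with a start sequence. The 8 cadherin and protocadherin starts with H3K4me3 in either genotype had a median of 23.5 CG dinucleotides. The 7 with H3K27me3 and no H3K4me3 had a median of 8.0, and the 5 with no island of any library also 8.0. Over all genes, starts with H3K4me3 in wild type had a median of 22.0 and starts without it 3.0. Pcdh7 was the poorest in CG of the 8 starts with H3K4me3, and its H3K4me3 islands of 13.8 kb in Asxl1-/- and 11.8 kb in wild type were the widest at an end of the single genes. The letters CAGGTG, the core of the E-box that Snail-family repressors bind, were searched on both strands, with no other motif overlapping the search. They occurred in 3 of 21 starts (14.3%), those of Cdh7, Pcdh7 and Pcdh15, against 19.6% of all starts. A match describes the letters in this window only. For Cdh1, the known Snail target, no start sequence was matched.

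The peak lists hold islands, stretches of enriched 200 bp windows, with neither read counts nor scores, so the depth of every library is unknown. In Asxl1-/- cells the lists held 33589 H3K4me2, 15276 H3K4me3 and 20249 H3K27me3 islands, against 36048, 17884 and 17712 in wild type, and the ASXL1 list held 17419. Whole chromosomes differed in the length covered. On chromosome 3 the ratio of Asxl1-/- to wild type was 0.532 for H3K4me2, 0.700 for H3K4me3 and 0.222 for H3K27me3, and on chromosome 10 it was 1.35, 1.45 and 2.09. On chromosome 18, which carries the clusters, it was 1.12, 1.16 and 1.98. What part the chromosome has in a difference at a gene on it was not tested, and for the single genes called lost or gained, the share called on the same chromosome is given beside the gene. Of 12 markers of mesenchymal stem and progenitor cells, 11 carried H3K4me3 in both genotypes, the exception being Lepr. Of 5 endothelial markers 1 did, Kdr. Of 5 epithelial markers 2 had H3K4me3 in Asxl1-/- and 3 in wild type, the difference being Cdh1. Of 4 neural markers 1 had it in Asxl1-/-, Neurod1, and 1 in wild type, Pax6.

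A gene counted as marked where an island lay within 1 kb of either end, since the gene table gives no strand. The single-gene cadherins and protocadherins carried H3K4me3 and ASXL1 less often, and H3K27me3 more often, than genes at large, as counts without a test. H3K4me3 lay at 12 of 33 in Asxl1-/- (36.4%, 95% exact interval 20.4 to 54.9), where 59.6% of all genes had it, and at 11 of 33 in wild type (33.3%, 17.96 to 51.8), where 59.8% did. H3K4me2 lay at 19 of 33 in Asxl1-/- (57.6%, 39.2 to 74.5), against 65.7% of all genes, a share inside that interval, and at 14 of 33 in wild type (42.4%, 25.5 to 60.8), against 64.7%. H3K27me3 was the mark in which the single genes exceeded the rest. It lay at 17 of 33 in Asxl1-/- (51.5%, 33.5 to 69.2), where 24.4% of all genes had it, and at 16 of 33 in wild type (48.5%, 30.8 to 66.5), where 27.4% did. ASXL1 lay at 6 of 33 in wild type (18.2%, 6.98 to 35.5), against 51.4% of all genes. These 6 were Cdh2, Cdh11, Cdh24, Pcdh1, Pcdh7 and Pcdh18. The single genes are long, with a median of 123 kb against 17.5 kb over all genes, and the part of gene length in these shares was not tested. The intervals cover counting error only.

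**Figure D1:**
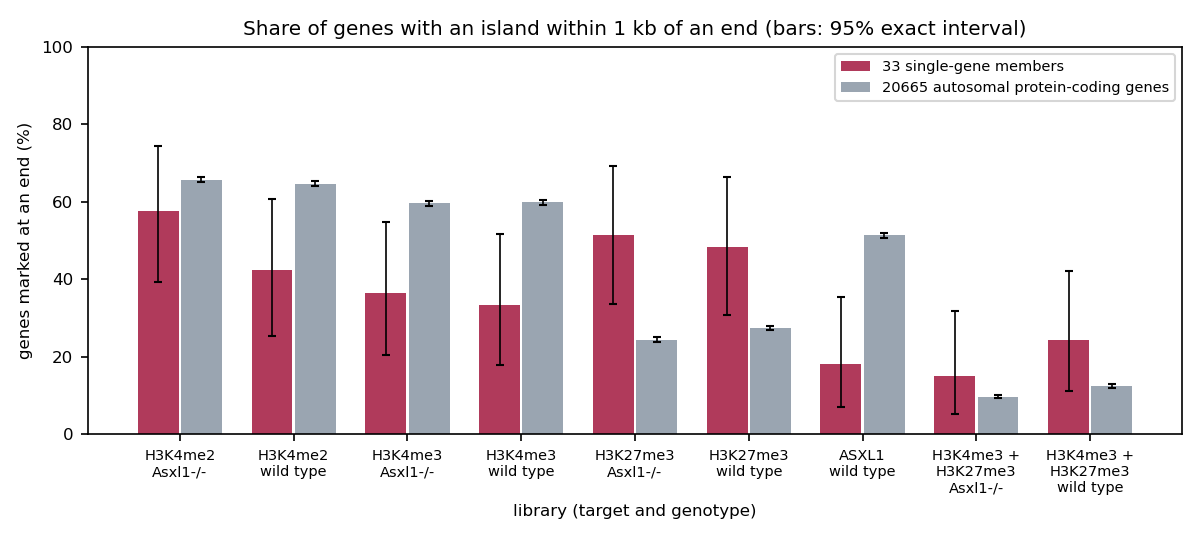
Share of genes (percent, vertical axis) with an island within 1 kb of a gene end in each library, for the 33 single-gene cadherins and protocadherins (red) and all 20665 autosomal protein-coding genes (grey), with 95% exact intervals as bars. The single genes stand at 51.5% for H3K27me3 in Asxl1-/- and 48.5% in wild type, above the 24.4% and 27.4% of all genes, and below all genes for ASXL1.

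A mark was called lost where wild type alone had it at a gene end and gained where Asxl1-/- alone had it. H3K4me3 was kept at 10 single genes, lost at Cdh1 (1 of 11 marked in wild type, 4.19% of all such genes) and gained at Pcdh9 and Pcdh10 (2 of 22 unmarked, 5.63% of all such genes). H3K4me2 was kept at 14, lost at 0 (2.98% of all genes) and gained at 5 of 19, Cdh4, Cdh10, Cdh20, Pcdh8 and Pcdh15 (8.46% of all genes). H3K27me3 was kept at 13, lost at 3 of 16, Cdh2, Cdh11 and Pcdh7 (25.8% of all genes), and gained at 4 of 17, Cdh5, Cdh13, Cdh20 and Cdh26 (5.60% of all genes). The share of H3K27me3 losses, 18.8% on a count of 3, was near that at large. The shares of H3K27me3 gains, 23.5%, and H3K4me2 gains, 26.3%, were above it, on counts of 4 and 5. Some of these calls rest on the window. Cdh13 was not among the H3K27me3 gains with a window of 500 bp, nor Cdh5 with 2500 bp. At 2500 bp Pcdh12 took the place of Pcdh15 among the H3K4me2 gains.

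**Figure D2:**
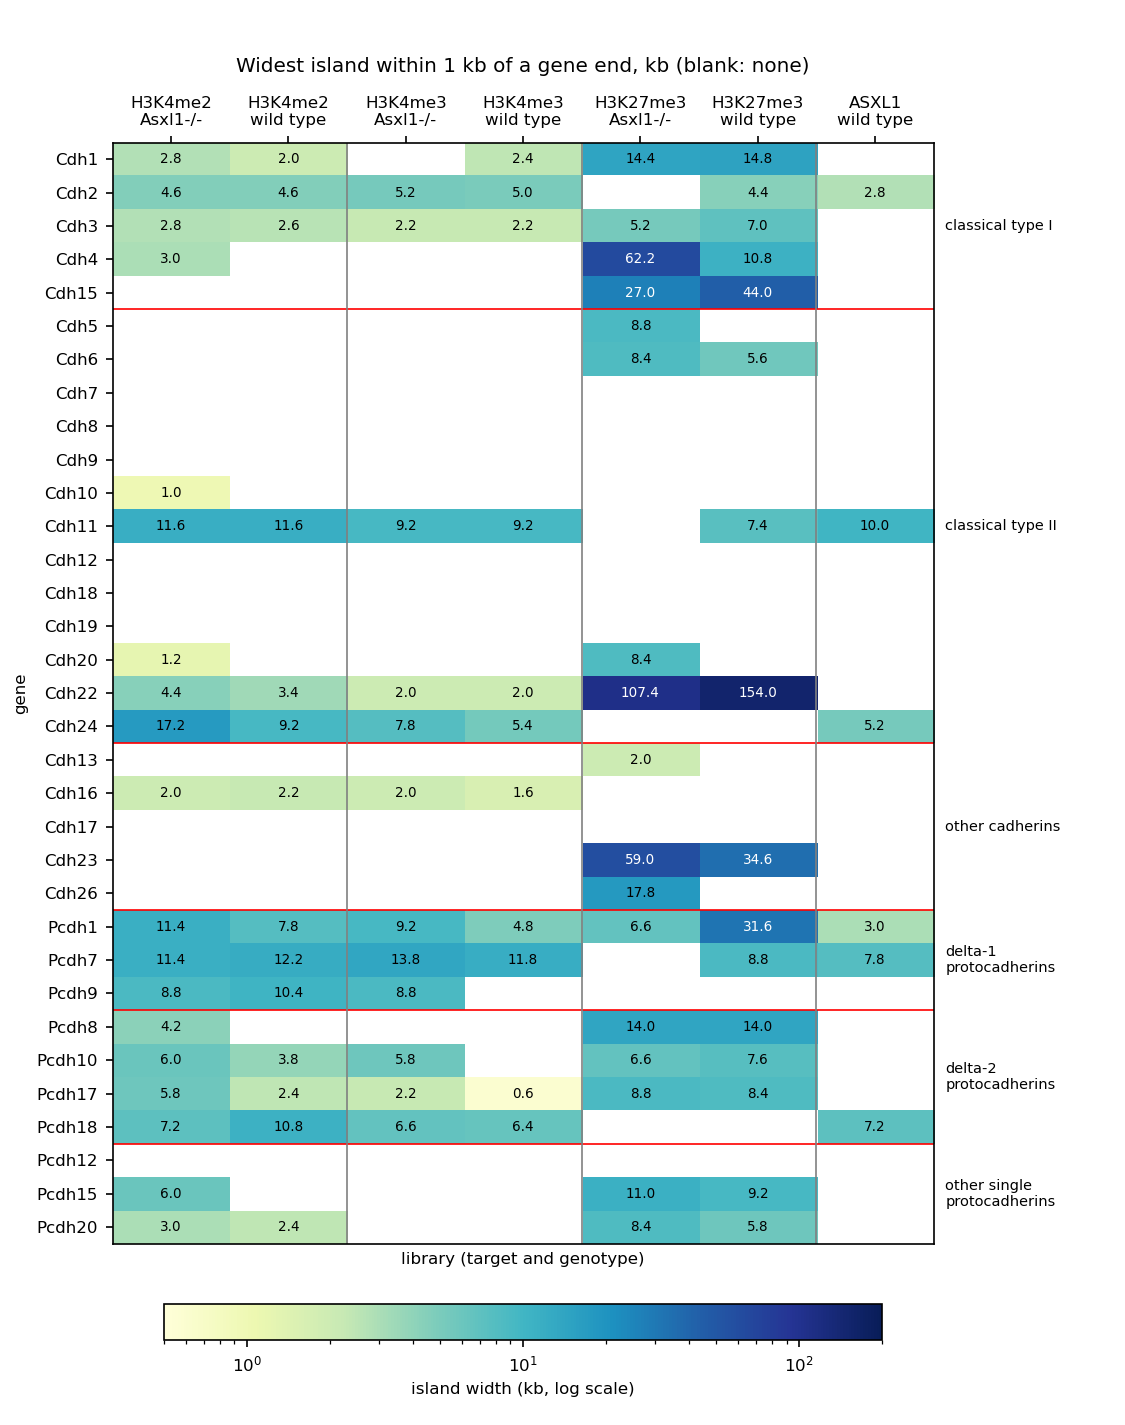
Width in kb of the widest island within 1 kb of a gene end for the 33 single genes (rows, by subgroup) in the 7 libraries (columns, Asxl1-/- left of wild type), coloured on a log scale, with blanks where there was none. Cdh2, Cdh11 and Pcdh7 are blank for H3K27me3 in Asxl1-/- and filled in wild type. Cdh7, Cdh8, Cdh9, Cdh12, Cdh17, Cdh18, Cdh19 and Pcdh12 are blank throughout.

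Among the 5 classical type I cadherins, Cdh2 and Cdh1 differed in opposite marks. Cdh2 (chr18:16588877-16809246), N-cadherin of mesenchymal and neural cells, had an H3K4me3 island of 5.2 kb in Asxl1-/- and 5.0 kb in wild type at the end near 16809246. H3K4me2 there was 4.6 kb wide in both. H3K27me3 was absent from the gene in Asxl1-/- and 4.4 kb wide in wild type, at the same end, and ASXL1 covered 2.8 kb there in wild type. On chromosome 18, 16.5% of genes with H3K27me3 in wild type lost it, although the chromosome as a whole had more H3K27me3 in Asxl1-/-. Inside the gene, H3K4me2 formed 4 further islands of 2.8 to 3.8 kb in Asxl1-/- and 2 of 1.6 and 3.0 kb in wild type.

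Cdh1 (chr8:106603350-106670247), E-cadherin of epithelia, had no H3K4me3 in Asxl1-/- and a 2.4 kb island in wild type at the end near 106603350. H3K4me2 stayed at that end, 2.8 kb wide in Asxl1-/- and 2.0 kb in wild type. H3K27me3 covered both ends in each genotype, with 11.4 and 14.4 kb in Asxl1-/- and 14.8 and 13.4 kb in wild type. Cdh1 therefore bore all 3 marks in wild type, and H3K4me2 with H3K27me3 in Asxl1-/-. On chromosome 8, 5.02% of genes with H3K4me3 in wild type lost it. A 3.8 kb ASXL1 island lay inside the gene, 13.7 kb from that end. The neighbouring Cdh3 (chr8:106510852-106556911), P-cadherin of basal epithelium, kept an H3K4me3 island of 2.2 kb in both, with H3K27me3 of 5.2 kb in Asxl1-/- and 7.0 kb in wild type.

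The remaining type I genes bore H3K27me3 with little or no H3K4 methylation. Over Cdh4 (chr2:179442423-179899377), R-cadherin of the retina and brain, H3K27me3 covered 75.6 kb in Asxl1-/- and 22.0 kb in wild type. The widest island at its end was 62.2 kb in Asxl1-/- and 10.8 kb in wild type, and the opposite end had H3K27me3 of 6.2 kb and H3K4me2 of 3.0 kb in Asxl1-/- alone. Of the genes of chromosome 2 without H3K4me2 in wild type, 6.51% gained it. On chromosome 2 as a whole the H3K27me3 ratio was below 1, at 0.815. Cdh15 (chr8:122848374-122867397), M-cadherin of muscle precursors, lay wholly under a 44.0 kb H3K27me3 island in wild type. In Asxl1-/- a 27 kb island stopped 2.80 kb short of its end near 122867397.

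Of the 13 type II cadherins only 3, Cdh11, Cdh22 and Cdh24, carried H3K4me3 in either genotype at a gene end. Cdh11 (chr8:102632095-102785493), osteoblast cadherin and a marker of mesenchymal cells, had an H3K4me3 island of 9.2 kb in both genotypes and an H3K4me2 island of 11.6 kb in both. H3K27me3 was absent in Asxl1-/- and 7.4 kb wide in wild type, and ASXL1 covered 10.0 kb at that end. Of the genes of chromosome 8 with H3K27me3 in wild type, 38.5% lost it. Cdh24 (chr14:54631231-54642067) had H3K4me3 of 7.8 kb in Asxl1-/- and 5.4 kb in wild type and H3K4me2 of 17.2 and 9.2 kb, with ASXL1 of 5.2 kb. Ends of other genes lie within 2 kb of both ends of Cdh24, so its islands cannot be assigned to it alone.

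Cdh22 (chr2:165111501-165234924), a cadherin of the brain and pituitary, combined the widest H3K27me3 of these genes at an end with a small active island. H3K27me3 islands of 107.4 and 86.8 kb reached its ends in Asxl1-/-, against 154.0 and 71.6 kb in wild type, and over the gene 124.6 kb was covered in Asxl1-/- and 123.8 kb in wild type. At its RefSeq start H3K4me3 was 2.0 kb wide in both genotypes. This start is also the one richest in CG among the matched genes, with 38.

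Most other type II genes had H3K27me3 or no island at an end. Cdh20 (chr1:104768340-104995481) had an 8.4 kb H3K27me3 island at its start in Asxl1-/- with H3K4me2 of 1.2 kb, and nothing in wild type at either end or inside. Over the whole gene H3K27me3 covered 19.1 kb in Asxl1-/- and 0 kb in wild type. On chromosome 1, 9.26% of genes without H3K27me3 in wild type gained it, and 11.2% of those without H3K4me2 gained H3K4me2. Cdh5 (chr8:104101613-104144504), VE-cadherin of endothelium, had H3K27me3 islands of 6.8 and 8.8 kb at its ends in Asxl1-/-. In wild type an island of 3.0 kb lay 1.104 kb from the end, outside the window, and the wider Asxl1-/- island contained it, so part of this gain is a matter of the window. A 2.2 kb ASXL1 island lay inside Cdh5 and not at its ends. On chromosome 8, 3.26% of genes without H3K27me3 in wild type gained it. Cdh6 (chr15:13028699-13176407), K-cadherin of the kidney, kept H3K27me3 of 8.4 kb in Asxl1-/- and 5.6 kb in wild type. At its RefSeq start, which lies inside the gene bounds, Asxl1-/- alone had H3K4me2, of 1.6 kb. Cdh10 (chr15:18818869-19016206) had only a 1.0 kb H3K4me2 island, in Asxl1-/-, where 14.3% of unmarked genes of chromosome 15 gained that mark.

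Cdh12 and Cdh18 carried nothing within 1 kb of a gene end but had islands at an internal RefSeq start. At that of Cdh18 (chr15:22548898-23477491), H3K4me3 was 2.4 kb wide in Asxl1-/- and 1.8 kb in wild type, and H3K4me2 3.0 and 1.8 kb. At that of Cdh12 (chr15:20448878-21598421) there was a 1.4 kb H3K27me3 island in Asxl1-/- alone. Cdh7, Cdh8, Cdh9 and Cdh19 had no island of any of the 7 libraries anywhere in the gene or within 1 kb. Those are 4 of 33 single genes (12.1%), against 18.9% of all genes, and 4.29% of the 1771 genes at least as long as the median single gene.

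Among the 5 remaining Cdh genes, Cdh23 stood out for the length under H3K27me3. Cdh23 (chr10:60302748-60696513), a cadherin of the tip link of hair cells, had 325.3 kb of H3K27me3 in Asxl1-/- and 244.1 kb in wild type, the most of the 33 genes in either genotype. The island at its start was 59.0 kb in Asxl1-/- and 34.6 kb in wild type. On chromosome 10 the H3K27me3 ratio was 2.09. Pcdh15 (chr10:73096277-74649831), the other tip-link protein, had H3K27me3 of 11.0 kb in Asxl1-/- and 9.2 kb in wild type at the end near 73096277. At that end its H3K4me2 call rests on the window, because islands of 6.0 kb in Asxl1-/- and 2.6 kb in wild type lay 0.124 and 1.92 kb away. At its RefSeq start, further inside, Asxl1-/- alone had H3K4me2, of 1.2 kb. On chromosome 10, 12.6% of genes without H3K4me2 in wild type gained it.

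Cdh26 (chr2:178430515-178487366) had a 17.8 kb H3K27me3 island at the end near 178487366 in Asxl1-/- and none in wild type. Of the genes of chromosome 2 without H3K27me3, 3.38% gained it. The H3K4me3 of Cdh26 lay inside the gene in both genotypes, 1.8 kb wide in Asxl1-/- and 2.0 kb in wild type. Cdh13 (chr8:118140017-119324929), T-cadherin, which is anchored by a lipid and lacks a tail, had a 2.0 kb H3K27me3 island 0.672 kb beyond its end in Asxl1-/- only, on the same chromosome as Cdh5. Cdh13 also had an internal site, about 143 kb from its low-coordinate end, with H3K4me3 of 3.0 kb in Asxl1-/- and 1.6 kb in wild type and H3K27me3 of 4.2 and 3.0 kb. Cdh16 (chr8:104601915-104624396), the kidney cadherin, kept H3K4me3 of 2.0 kb in Asxl1-/- and 1.6 kb in wild type, with H3K27me3 inside the gene of 17.8 and 11.4 kb in all. Cdh17 (chr4:11758157-11817905), the liver and intestine cadherin, had 0 kb in Asxl1-/- and islands inside the gene in wild type, 5.4 kb of H3K4me2 and 7.2 kb of H3K27me3.

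All 3 delta-1 protocadherins had H3K4 methylation in both genotypes. Pcdh7 (chr5:57716145-58133236) had H3K4me3 of 13.8 kb in Asxl1-/- and 11.8 kb in wild type and H3K4me2 of 11.4 and 12.2 kb over its start. H3K27me3 was absent from the gene in Asxl1-/- and 8.8 kb wide at the start in wild type, where ASXL1 covered 7.8 kb. On chromosome 5, 31.4% of genes with H3K27me3 in wild type lost it. Pcdh1 (chr18:38185914-38212048), a protocadherin of airway epithelium, was called kept for H3K27me3, yet its cover differed. H3K27me3 covered 0.648 kb of the gene and its 1 kb margins in Asxl1-/- and 27.3 kb in wild type. The 6.6 kb Asxl1-/- island lay 0.353 kb outside the gene, while wild type had islands of 31.6 and 13.8 kb over the gene. At the end of Pcdh1 with the 3.0 kb ASXL1 island, H3K4me3 was 5.4 kb wide in Asxl1-/- and 4.8 kb in wild type. At its opposite end H3K4me3 was 9.2 kb wide in Asxl1-/- and 2.8 kb in wild type. Pcdh9 (chr14:93013700-93892834) was called gained for H3K4me3 only because the wild-type island stopped 1.03 kb short of the gene end. At its RefSeq start H3K4me3 was 8.8 kb wide in Asxl1-/- and 9.0 kb in wild type, with ASXL1 of 3.4 kb. On chromosome 14, 6.36% of genes without H3K4me3 in wild type gained it.

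The 4 delta-2 protocadherins each had H3K4me2 in Asxl1-/-. Pcdh18 (chr3:49743291-49757383) kept H3K4me3 of 6.6 kb in Asxl1-/- and 6.4 kb in wild type, with ASXL1 of 7.2 kb and no H3K27me3. Pcdh10 (chr3:45378398-45434579), which acts in axon growth, had H3K4me3 of 5.8 kb in Asxl1-/- and none in wild type. H3K4me2 at the same start was 6.0 kb in Asxl1-/- and 3.8 kb in wild type, and H3K27me3 6.6 and 7.6 kb. On chromosome 3 only 2.86% of genes without H3K4me3 in wild type gained it. At Pcdh17 (chr14:84443563-84537565) H3K4me3 was 2.2 kb wide in Asxl1-/- and 0.6 kb in wild type, with H3K27me3 of 8.8 and 8.4 kb. Pcdh8 (chr14:79766772-79771312), a regulator of cell movements in the embryo, gained H3K4me2 of 4.2 kb under an H3K27me3 island that was 14.0 kb in both. On chromosome 14, 9.73% of genes without H3K4me2 gained it.

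Pcdh20 (chr14:88464743-88471396) carried H3K4me2 of 3.0 kb in Asxl1-/- and 2.4 kb in wild type with H3K27me3 of 8.4 and 5.8 kb. Pcdh12 (chr18:38267092-38284401), a protocadherin of endothelium, had only H3K4me2 inside the gene, with 7.2 kb in Asxl1-/- and 4.4 kb in wild type.

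The H3K27me3 losses lay at genes with ASXL1 at an end in wild type. Of the 4 single genes with both H3K27me3 and ASXL1 in wild type, Cdh2, Cdh11 and Pcdh7 lost H3K27me3. Pcdh1 was called kept, with the reduced cover given above, and that call came from its end without ASXL1. At its end with ASXL1, a 31.6 kb H3K27me3 island lay in wild type and none in Asxl1-/-. Of the 12 with H3K27me3 and no ASXL1 at an end, 0 lost it. Read end by end, Cdh15 among them had H3K27me3 in wild type and none in Asxl1-/- at its end near 122867397. Over all genes the same split was 41.3% lost with ASXL1 (682 of 1653) and 19.5% without it (782 of 4019). All 4 genes with ASXL1 also had H3K4me3 at the same end. Restricted to genes with H3K27me3 and H3K4me3 at the same end in wild type, the shares over all genes were 41.3% with ASXL1 and 17.99% without. Among the single genes they were 3 of 4 and 0 of 4. In these counts ASXL1 could lie at either end, and a loss meant no H3K27me3 at either end in Asxl1-/-. Those without ASXL1 and without a loss were Cdh1, Cdh3, Cdh22 and Pcdh17. An ASXL1 island more than 1 kb from the gene ends lay inside Cdh1 (3.8 kb), Cdh3 (5.8 kb) and Cdh23 (11.6 kb). These genes kept H3K27me3. Cdh5, which gained it, had 1 of 2.2 kb. None of these internal ASXL1 islands overlapped H3K27me3 in either genotype. Pcdh7 had 1 of 1.8 kb besides that at its start. Pcdh9, which bore no H3K27me3, had 1 of 3.4 kb over its RefSeq start, 1.234 kb from the gene end. With the wider 50% of islands, Pcdh7 and Pcdh1 lost H3K27me3, and the ASXL1 island of Pcdh1 was too narrow to be counted. With the gene body included, 3 of 8 genes with ASXL1 and 1 of 12 without it lost H3K27me3. These counts are small and the split was not tested.

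**Figure D3:**
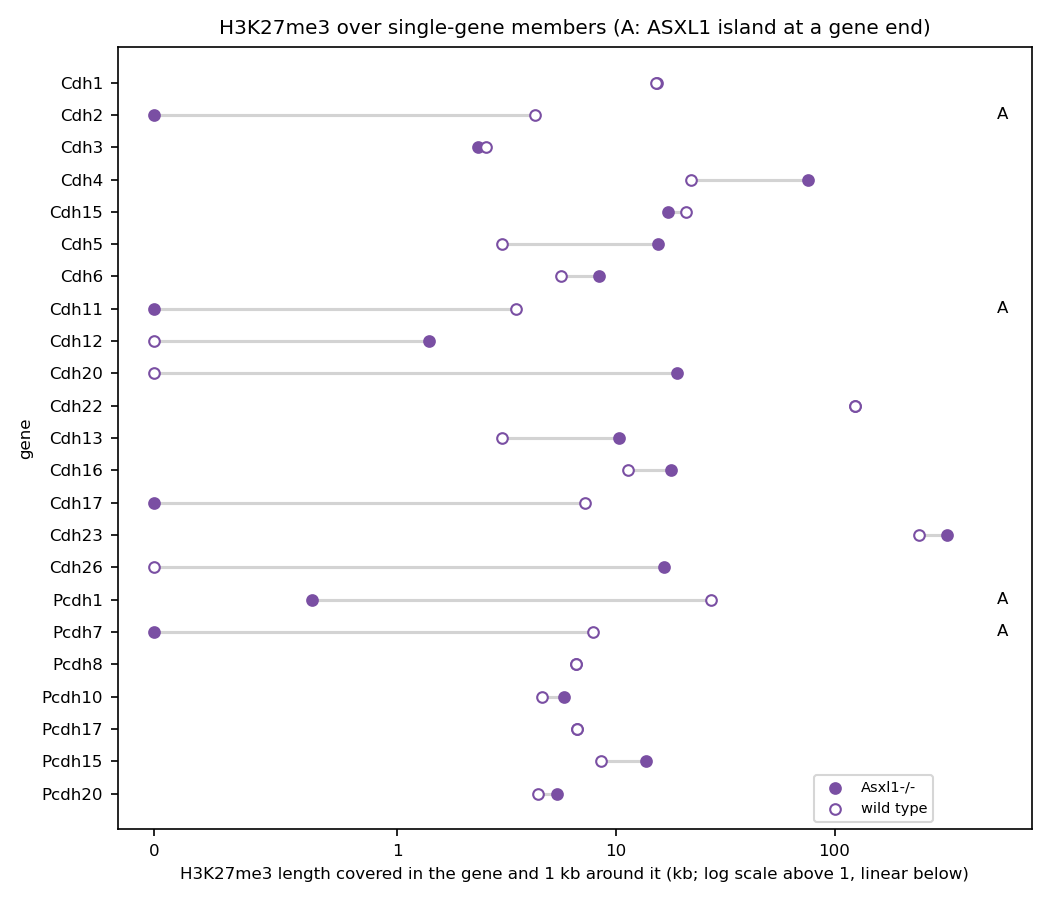
H3K27me3 length (kb, log scale above 1 and linear below) over each single gene and 1 kb around it in Asxl1-/- (filled) and wild type (open), with A at genes whose end carried ASXL1 in wild type. Cdh2, Cdh11 and Pcdh7 sit at 0 in Asxl1-/- and Pcdh1 at 0.648 kb, while Cdh4, Cdh20 and Cdh26 lie further right in Asxl1-/- than in wild type.

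Counted by the marks they bore at any end, more single genes had H3K4me3 without H3K27me3 in Asxl1-/- than in wild type. H3K4me3 without H3K27me3 was found at 7 in Asxl1-/- (21.2%) and 3 in wild type (9.09%), against 48.4% and 45.6% of all genes. Pcdh9 is among the 7. In wild type Pcdh9 counted as H3K4me2 alone, because its H3K4me3 island stopped 1.03 kb short of the gene end. H3K27me3 with H3K4me2 but no H3K4me3 was found at 6 in Asxl1-/- (18.2%), Cdh1, Cdh4, Cdh20, Pcdh8, Pcdh15 and Pcdh20. In wild type it was found at 2 (6.06%), Pcdh10 and Pcdh20, and over all genes at 4.35% in Asxl1-/- and 3.05% in wild type. H3K27me3 alone was found at 6 in each genotype (18.2%), against 8.88% of all genes in Asxl1-/- and 10.2% in wild type. No mark was found at 8 in Asxl1-/- (24.2%) and 13 in wild type (39.4%), against 24.97% and 24.8% of all genes. H3K4me3 and H3K27me3 at the same end were found at 5 in Asxl1-/- (15.2%, 5.11 to 31.9), Cdh3, Cdh22, Pcdh1, Pcdh10 and Pcdh17. In wild type they were found together at 8 (24.2%, 11.1 to 42.3). Over all genes the shares were 9.71% in Asxl1-/- and 12.4% in wild type. With a window of 5000 bp the count in Asxl1-/- was 8, and with the wider 50% of islands it was 0 in Asxl1-/- and 2 in wild type.

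The gamma cluster (chr18:37660775-37842873 with its 1 kb margins) is a row of 18 A-type and B-type genes followed by Pcdhgc3, Pcdhgc4 and Pcdhgc5. A start in a cluster is here the gene end with the lower coordinate. Its A-type and B-type starts were marked at different genes in each genotype, with no start in common. H3K4me3 lay at 5 starts in Asxl1-/- alone, those of Pcdhga3, Pcdhgb1, Pcdhgb2, Pcdhga5 and Pcdhga8, with islands of 3.2, 2.0, 3.4, 1.8 and 2.6 kb. It lay at 6 starts in wild type alone, those of Pcdhga2, Pcdhga4, Pcdhga6, Pcdhga7, Pcdhgb5 and Pcdhgb6, with islands of 0.8, 2.8, 3.8, 2.0, 1.8 and 1.8 kb. The starts of the other 7 genes had H3K4me3 in neither genotype, and 0 of 18 had it in both.

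H3K4me2 also had no start in common. It lay in Asxl1-/- alone at 4 starts, those of Pcdhga3, Pcdhgb2, Pcdhga5 and Pcdhga8, and in wild type alone at 6 starts, the same 6 as for H3K4me3. Over the gene ends with the lower coordinate, 3.75% of all genes without H3K4me3 there gained it and 5.73% of those with it lost it. For H3K4me2 the shares were 5.07% gained and 6.24% lost. On chromosome 18, counted by either end, 13.0% of genes without H3K4me3 in wild type gained it and 2.20% of those with it lost it. For H3K4me2 the shares there were 15.03% gained and 1.40% lost. Of the 25 H3K4me3 gains, 12 were gamma genes, all with the 2.2 kb Asxl1-/- island at the shared 3′ end described below. Gm38666 and Gm38667, predicted genes that end there, gained H3K4me3 by the same island. The H3K4me3 gain share of chromosome 18 thus comes in part from the gamma cluster itself. Narrow islands are shared less often between lists. Of the autosomal H3K4me3 islands no wider than the 3.8 kb of the widest one here, 83.2% in Asxl1-/- and 67.1% in wild type overlapped an island of the other genotype. For H3K4me2 islands of at most 3.4 kb the shares were 67.3% and 58.2%. At the gamma starts the overlap was 0 of 5 and 0 of 6 islands for H3K4me3, and 0 of 4 and 0 of 6 for H3K4me2. With only the wider 50% of islands of each list, H3K4me3 was at 0 of these starts in Asxl1-/- alone and at 1 in wild type alone. The starts lie on 1 chromosome in 1 row and are not replicates of each other. The sources used here do not say how reads were placed among the similar variable exons.

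The C-type end of the gamma cluster carried marks in both genotypes. A single H3K4me3 island of 22.2 kb spanned the starts of Pcdhgc3, Pcdhgc4 and Pcdhgc5 in Asxl1-/-, and in wild type islands of 6.6, 7.0 and 2.0 kb lay over them. H3K4me2 was 24.4 kb wide in Asxl1-/- and 23.6 kb in wild type. ASXL1 covered 7.0 kb at Pcdhgc3 and 14.6 kb at Pcdhgc4 and Pcdhgc5, 1.0 kb at Pcdhgb5 in the row before, and 4.0 kb between Pcdhgc5 and the shared 3′ end. H3K27me3 was absent from the whole cluster in both genotypes. At the shared 3′ end, Asxl1-/- had an H3K4me3 island of 2.2 kb. Counted by either end, H3K4me3 was therefore at all 21 gamma genes in Asxl1-/- and at 9 in wild type, a difference that comes from this shared end. Over the cluster as a unit, H3K4me3 covered 36.7 kb in Asxl1-/- and 30.6 kb in wild type, of which 17.2 kb was common. H3K4me2 covered 47.9 kb in Asxl1-/- and 46.3 kb in wild type, of which 33.5 kb was common.

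**Figure D4:**
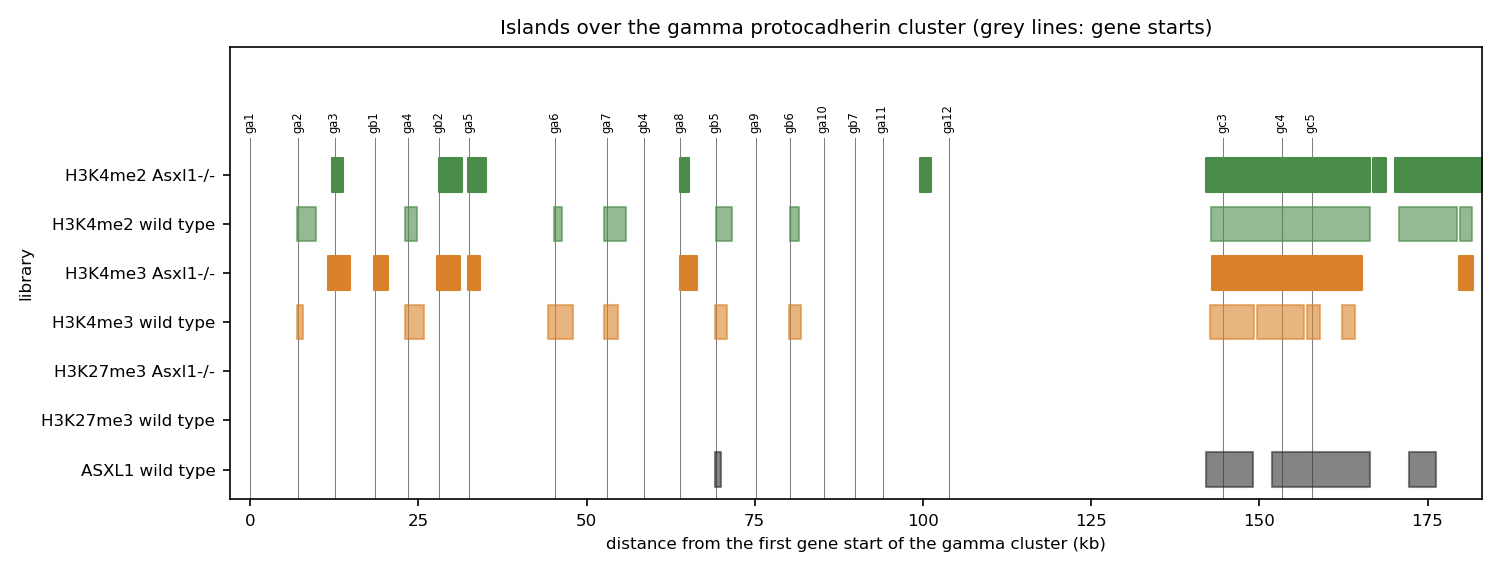
Islands of the 7 libraries (rows, Asxl1-/- above wild type) along the gamma protocadherin cluster, by distance in kb from its first gene start, with grey lines at the 21 gene starts. H3K4me3 islands of Asxl1-/- and wild type stand at different starts in the A-type and B-type row, and both genotypes are covered at the 3 C-type starts.

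In the alpha cluster (chr18:36929285-37189897) only C-type genes were marked, and the starts of Pcdha1 to Pcdha12 had no island in any library. At Pcdhac2 H3K4me3 was 4.6 kb wide in Asxl1-/- and 2.4 kb in wild type, H3K4me2 4.6 and 2.2 kb, and H3K27me3 10.4 and 5.2 kb. At Pcdhac1 Asxl1-/- alone had islands, H3K4me2 of 3.0 kb and H3K27me3 of 9.6 kb. On chromosome 18, 8.82% of genes without H3K27me3 in wild type gained it. Between the Pcdhac2 start and the shared 3′ end, Asxl1-/- alone had H3K4me2 of 4.8 kb and H3K4me3 of 3.6 kb. Over the whole cluster H3K27me3 covered 20.0 kb in Asxl1-/- and 5.2 kb in wild type, and the wild-type stretch lay inside that of Asxl1-/-. H3K4me2 covered 12.4 kb in Asxl1-/- and 2.2 kb in wild type, and H3K4me3 8.2 and 2.4 kb. The chromosome 18 ratio for H3K27me3 was 1.98, and its part in the cover of the cluster was not tested. No ASXL1 island lay in the cluster.

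In the beta cluster (chr18:37263998-37522419), whose 22 genes each form a whole protein without shared exons, 4 starts bore H3K4me3. Pcdhb15 had H3K4me3 of 2.0 kb in Asxl1-/- and 3.4 kb in wild type. Pcdhb16 had 4.0 kb in Asxl1-/- and 2.6 kb in wild type, and Pcdhb21 had 1.4 and 1.0 kb. Pcdhb2 had none in Asxl1-/- and 2.4 kb in wild type. H3K4me2 lay at Pcdhb15 and Pcdhb16 in both genotypes and at Pcdhb21 in wild type alone, with 1.2 kb. H3K27me3 and ASXL1 were absent from the beta cluster. Among all 57 clustered starts, H3K4me3 lay at 7 in both genotypes, at 5 in Asxl1-/- alone, at 7 in wild type alone and at 38 in neither, and H3K27me3 at 2 in Asxl1-/- and 1 in wild type. The H3K27me3 call was kept at Pcdhac2 and gained at Pcdhac1, and 0 of 1 start lost it. Over the low-coordinate ends of all genes 27.6% lost H3K27me3 and 4.80% gained it.

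**Figure D5:**
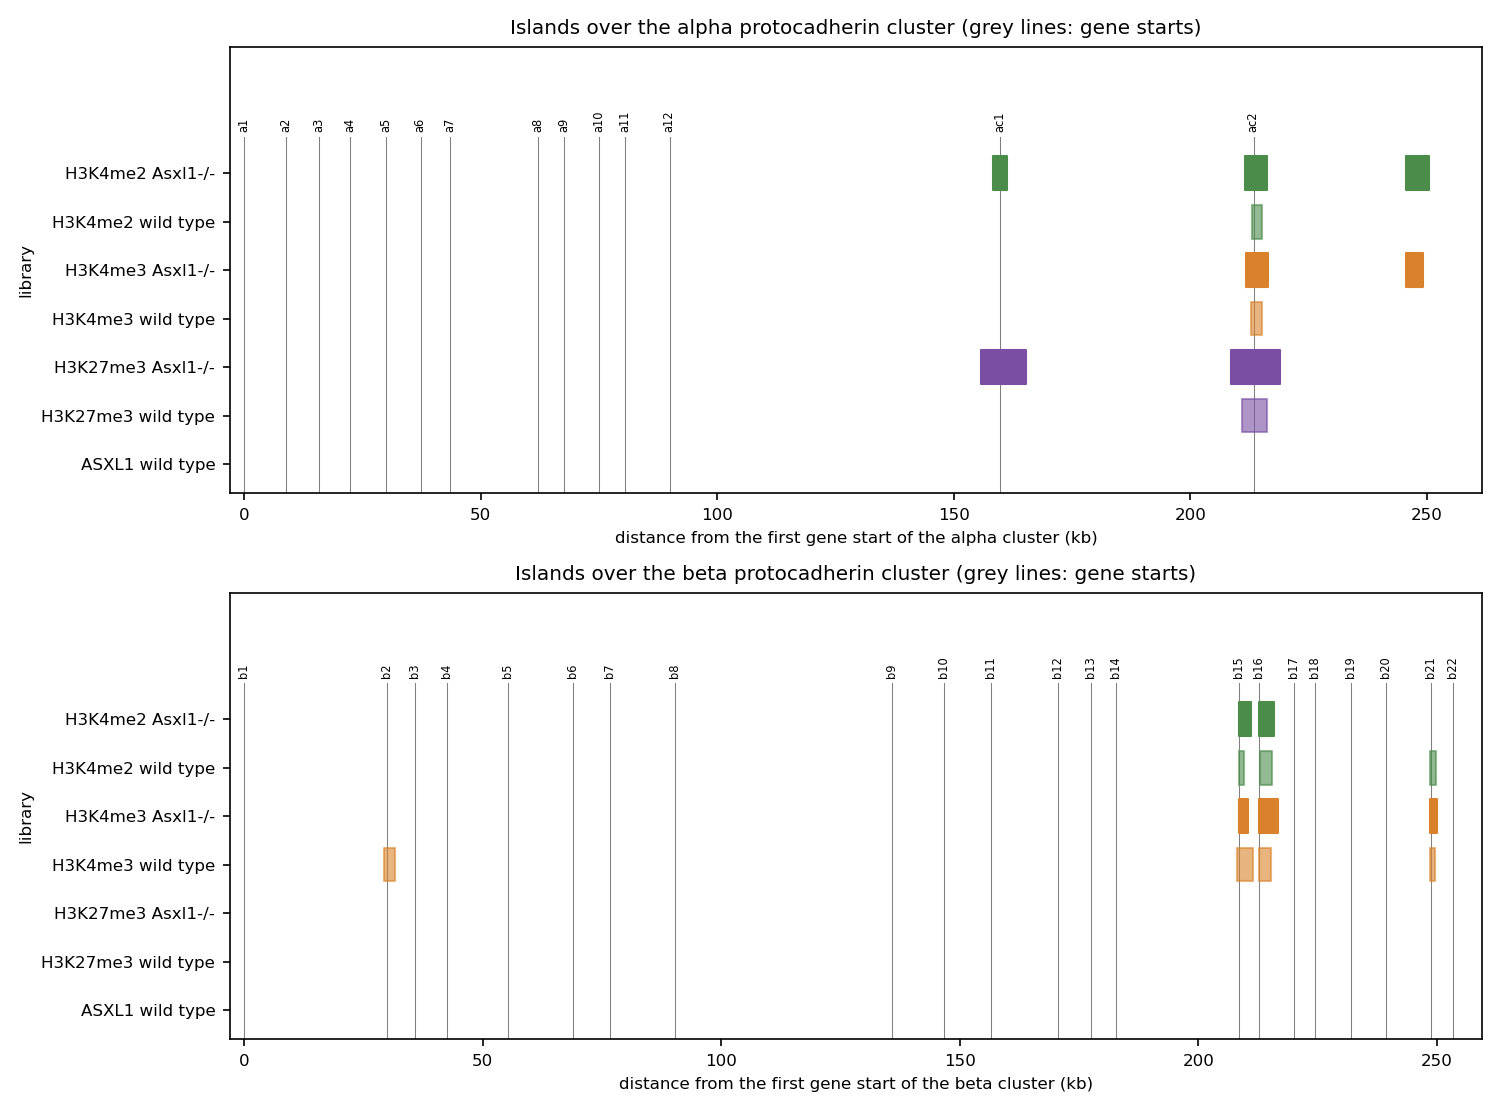
Islands of the 7 libraries (rows, Asxl1-/- above wild type) along the alpha (top) and beta (bottom) protocadherin clusters, by distance in kb from the first gene start of each, with grey lines at gene starts. In the alpha cluster islands stand at Pcdhac1, Pcdhac2 and beyond, wider in Asxl1-/-, and the beta cluster shows H3K4me3 at Pcdhb15, Pcdhb16 and Pcdhb21 in both genotypes.

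Of 19 catenin and adaptor genes, H3K4me3 was kept at 13 and lost at 1 of 14 (7.14%, against 4.19% of all genes), Pkp1, a desmosome plaque protein with 1.8 kb in wild type alone. Ctnnb1, which encodes beta-catenin, had H3K4me3 of 6.6 kb in Asxl1-/- and 5.8 kb in wild type, and Ctnna1, alpha-catenin, 6.6 and 5.0 kb. H3K27me3 was kept at 3 of the 19, lost at 0 (25.8% of all genes) and gained at 1 of 16 (6.25%, against 5.60% of all genes), Pkp3, with 24.6 kb in Asxl1-/-. H3K4me2 was kept at 14, lost at 1 of 15 (6.67%, against 2.98% of all genes), Nectin1, and gained at 1 of 4, Ctnna2.

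Of 24 other genes of the cadherin superfamily, H3K4me3 was kept at 11, lost at 2 of 13, Clstn2 and Dchs2 (15.4%, against 4.19% of all genes), and gained at 0 of 11 (5.63% of all genes). H3K27me3 was kept at 14, lost at 2 of 16, Clstn1 and Fat4 (12.5%, against 25.8% of all genes), and gained at 2 of 8, Cdhr4 and Dsc3 (5.60% of all genes). Fat4, a planar polarity cadherin, had H3K4me3 of 7.2 kb in Asxl1-/- and 10.8 kb in wild type and ASXL1 of 8.4 kb, and its H3K27me3 of 4.0 kb was in wild type alone. Fat4 lies on chromosome 3, where 58.0% of genes with H3K27me3 in wild type lost it. Clstn1 had no ASXL1 at an end, while Dchs1 and Celsr3 kept H3K27me3 with ASXL1 of 13.4 and 2.6 kb. H3K4me2 was kept at 12, lost at 2 of 14, Cdhr4 and Dsc3 (2.98% of all genes), and gained at 4 of 10, Cdhr2, Clstn3, Dsg2 and Fat3 (8.46% of all genes).

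Of 11 genes known to regulate the clustered protocadherins, 9 had H3K4me3 and H3K4me2 in both genotypes and 0 were called lost or gained for any of the 3 marks. Over all genes 4.19% lost H3K4me3 and 2.98% lost H3K4me2, so 0 losses among 9 genes is near the share at large. H3K27me3 was lost at 0 of 2 (25.8% of all genes) and gained at 0 of 9 (5.60% of all genes). H3K4me3 and H3K4me2 were each gained at 0 of 2 (5.63% and 8.46% of all genes). Counts this small do not set the list apart from all genes. Ctcf, which encodes the insulator protein that binds cluster promoters, had H3K4me3 of 6.4 kb in Asxl1-/- and 5.4 kb in wild type. Smchd1, a repressor of the clusters, had 4.6 kb in Asxl1-/- and 5.0 kb in wild type.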

How the data were processed

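Per the submitters' processing notes, reads were aligned with BWA and islands called with SICER 1.1 on mm10. The sources used here do not give the version of BWA, nor the window, gap, control and false discovery settings of SICER. The deposited lists of 7 samples hold no score or count, only chromosome, start, end, running number and library name. Starts were taken as 0-based and converted. Gene positions and starts came from RefSeq tables of GRCm38.p6.

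A gene was called marked when an island came within 1000 bp of either end, with 1 bp as the least overlap, lost when wild type alone was marked and gained when Asxl1-/- alone was. Clusters were taken as units from 1000 bp before the first to 1000 bp after the last gene. Clustered genes were counted at their low-coordinate end. Every single gene is named with its state, and clustered genes where marked at their own start. The blood marker list is not reported here. The members and gene lists were chosen with earlier results of these data known. Shares carry 95% exact Clopper-Pearson intervals. No test was made, because each group has 1 library. Python 3.11.15, numpy 2.4.6, pandas 2.3.3 and scipy 1.17.1 were used. Overlap counts equalled those of bedtools 2.31.1. The call code was also run on wild-type lists from which the islands of randomly picked genes had been removed. The outcome of that run was fixed by its design, so it does not bear on noise or depth. Alternatives covered the window, the gene part, the least overlap, island width, list length and chromosomes.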

Additional observations from a re-analysis of the deposited data

How the results depend on the processing

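Calls at windows of 500 bp, with an island covering at least 500 bp of the window, with lists of a mark cut to equal number, and with clusters extended by 10000 bp stayed within 1.5 times of the reported values, as did starts within 200 or 500 bp. With windows of 2500 bp, H3K4me2 was lost at 1 single gene, against 0, and H3K4me3 gained at 1, against 2. At 5000 bp these were again 1 and 1, and both H3K4me3 and H3K27me3 marked 8 single genes in Asxl1-/-, against 5. Using RefSeq starts only, known for 21 of the 33, H3K27me3 marked 10 in Asxl1-/- and 9 in wild type, H3K4me2 9 and H3K4me3 7 in wild type. H3K4me2 was then kept at 9, H3K4me3 lost at 0 and gained at 1, and H3K27me3 kept at 8, lost at 1 (Pcdh7, with ASXL1) and gained at 2, with 3 co-marked in each genotype. With the gene body included, ASXL1 marked 11, H3K4me2 22 and H3K4me3 17 in wild type, H3K4me2 was lost at 1, H3K4me3 kept at 16 and gained at 1, and 10 were co-marked in Asxl1-/-. H3K27me3 was then lost at 3 of 8 genes with ASXL1 and at 1 of 12 without it, Cdh17. The same split was 3 of 5 and 0 of 13 at 2500 bp, and 3 of 6 and 0 of 12 at 5000 bp. With RefSeq starts only it was 1 of 1 and 0 of 8.

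With the wider 50% of islands, wild type had H3K4me2 at 9, H3K4me3 at 6 and H3K27me3 at 10 single genes, kept at 9, 6 and 8. H3K4me3 was lost at 0, co-marked genes were 0 in Asxl1-/- and 2 in wild type, and H3K27me3 was lost at 1 gene with ASXL1, Pcdh7, and 1 counted as without it, Pcdh1, whose ASXL1 island is among the narrower 50%. Gamma A-type and B-type starts then had H3K4me3 at 0 in Asxl1-/- alone and 1 in wild type alone, and H3K4me2 at 1 and 1. Over all clustered starts H3K4me3 lay at 2 in both, 2 in Asxl1-/- alone and 2 in wild type alone, H3K4me2 at 3 in both and 1 in wild type alone, and H3K27me3 at 0 in both and 2 in Asxl1-/- alone. On autosomes whose log2 ratio of covered length for another mark lay within 0.2 of the autosomal median, which hold 19 (for H3K4me2) or 20 of the 33, marked counts fell with the number of genes to 2 for ASXL1, 10 and 8 for H3K4me2 (Asxl1-/- and wild type), 5 and 6 for H3K4me3 and 10 and 8 for H3K27me3. H3K4me2 was then kept at 8 and gained at 2, H3K4me3 kept at 5 and gained at 0, H3K27me3 kept at 6 and lost at 2 (Cdh11 and Pcdh7), with 2 and 5 co-marked. The alternatives for the clustered starts other than 200 bp, and the split by ASXL1, were chosen after seeing the data.

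No paired analysis was possible because each group has 1 library, and leaving out a replicate was not possible either. Depth is unknown, which limits what an island present in 1 genotype alone says about signal.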

Other observations

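The protocadherin genes of the X chromosome were outside the counts. Pcdh19 had H3K4me3 of 11.6 kb in Asxl1-/- and 10.6 kb in wild type at the end near 133689044, H3K4me2 of 14.2 and 11.4 kb and ASXL1 of 5.0 kb, and no H3K27me3. Pcdh11x had an H3K27me3 island of 5.2 kb in Asxl1-/- alone and nothing else. Within the gamma cluster, the transcribed pseudogene Pcdhgb8 had H3K4me2 of 1.6 kb at its start in Asxl1-/- alone and no H3K4me3 there. Gm38666 and Gm38667, predicted genes that span the clusters on chromosome 18, were not counted as cadherin or protocadherin genes but are among all autosomal protein-coding genes. They had no island at their low-coordinate end in any library. Their other end is the shared 3′ end of the gamma cluster. It had H3K4me3 of 2.2 kb in Asxl1-/- alone and H3K4me2 of 25.4 kb in Asxl1-/- and 8.6 kb in wild type.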
